A study of Mus musculus with 30 samples.

Results

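The comparison described here sets the hippocampus of mice on the diet labelled 10% P against that of mice on Chow. The libraries were chosen by their diet label alone, which gave 6 libraries of 10% P and 6 of Chow, 12 of the 30 in the series. The whole hippocampus was taken at 15 months of age, from 3 females and 3 males on each diet, and the series describes the 6 mice of a diet as biological replicates. The other libraries, 6 each, came from the diets labelled 5% P, 15% P and ChowCR. From the title of the series, P is read as the percentage of protein in low protein, high carbohydrate diets and CR as caloric restriction, and the question is what such diets do to the ageing brain. The labels give neither the composition of the diets, nor how long they were fed, nor the strain.

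A cell senses scarce protein through its free amino acids. Uncharged transfer RNA activates the kinase Gcn2, which raises the transcription factor Atf4 and its targets, and low leucine or arginine quiets the growth kinase mTOR, which in turn releases autophagy. The hippocampus, the seat of spatial and episodic memory, spends much of its energy on synapses, so genes of synaptic vesicles, receptors, glutamate uptake by astrocytes and mitochondrial respiration are given beside the nutrient-sensing genes.

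Expression is given as FPKM per transcript (fragments per transcript length and library size), so levels are per length. The 10% P libraries listed between 19978 and 21281 transcripts and the Chow libraries between 20717 and 21595. Read counts were not analysed here, so the depth is unknown and cannot be used to weigh one library against another. A transcript without a value in a library is not listed there, which is not 0: Nrgn, a very abundant calmodulin-binding protein of hippocampal neurons, was listed in 2 of 6 libraries of 10% P at 517 and 576 FPKM and in 1 of 6 of Chow at 792 FPKM. Of the 16697 transcripts with a mean of at least 1 FPKM, 26.6% were listed in all 30 libraries. Many tested transcripts lay at separate levels: for 33.9% of the 4447 transcripts tested, a gap of more than 1 on the log2 scale separated neighbouring libraries somewhere among the 30. Of the 20 hippocampal markers, 18 were listed in at least 1 of the 12 libraries, and the kinase subunit Camk2a was at 506 to 643 FPKM in 10% P and 472 to 601 FPKM in Chow.

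No transcript and no gene passed the test between 10% P and Chow. With limma on log2(FPKM + 0.5), 0 of 4447 transcripts (0.0%) and 0 of 4848 genes (0.0%), each gene being the sum of its listed transcripts, had an adjusted p under 0.05. An unadjusted p under 0.05 was reached by 279 transcripts (6.27%), with 145 higher (3.26%) and 134 lower (3.01%) in 10% P, and by 300 genes (6.19%), with 168 higher (3.47%) and 132 lower (2.72%). The smallest adjusted p was 0.0899 for a transcript of Ubl5 and 0.0612 for the gene Slc1a3. The 10% P and Chow libraries did not overlap for 5 higher (0.112%) and 8 lower transcripts (0.18%), and for 10 higher (0.206%) and 7 lower genes (0.144%). The median standard error of a log2 difference was 0.32 for transcripts and 0.34 for genes. The differences between 10% P and Chow below are therefore values, given with their errors, and none of them is a call.

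The 4 lower transcripts of smallest p in 10% P came from Ubl5, Syngr1, Pcmt1 and Fez1. Ubl5 encodes a small ubiquitin-like protein that, in yeast and human cells, takes part in splicing of pre-mRNA. Its transcript ENSMUST00000160124.1 was at 1.43, 0.80, 1.29, 3.11, 0.457 and 2.6 FPKM in the 6 libraries of 10% P, against 7.28, 9.08, 7.96, 7.02, 4.67 and 6.14 FPKM in the 6 of Chow. All 10% P libraries lay below all Chow libraries, in both sexes. The log2 difference of this transcript was -1.95 ± 0.38 (SE; limma, adjusted p = 0.0899). It was -2.12 without 10% P replicate 4, where alone it passed (limma, adjusted p = 0.0485), and adjusted p ran from 0.0485 to 0.478 over its 26 alternatives. On GRCm38, the build also called mm10, it spans chromosome 9 from 20645041 to 20646775, plus strand.

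The rest of Ubl5 gave no difference beyond its spread. The transcript ENSMUST00000129414.6, which starts upstream and carries the same number of coding bases, 219, was the more abundant, at 13.7 to 58.3 FPKM (median 16.9) in 10% P and 14.7 to 53.6 FPKM (median 21.7) in Chow. Its log2 difference was -0.28 (limma, adjusted p = 0.992). Summed over the gene, Ubl5 was at 30.0 ± 16.3 FPKM in 10% P and 37.8 ± 15.1 FPKM in Chow (SD, n = 6 each), a log2 difference of -0.37 ± 0.58 (SE; limma, adjusted p = 0.941). The short transcript was the smaller part of the gene's RNA, with a median of 1.36 FPKM in 10% P and 7.15 FPKM in Chow.

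Syngr1 encodes synaptogyrin 1, a protein that spans the membrane of synaptic vesicles. Its transcript ENSMUST00000009727.9 was at 7.10 to 8.21 FPKM (median 7.66) in 10% P and 8.45 to 70.9 FPKM (median 50.9) in Chow, and the groups did not overlap. The Chow libraries fell into 4 between 45.1 and 70.9 FPKM and 2 at 8.45 and 11.02 FPKM, close to the 10% P libraries. The log2 difference was -1.99 ± 0.46 (SE; limma, adjusted p = 0.303). Without Chow replicate 4, the lowest of that group, it was -2.38 and passed (limma, adjusted p = 0.0360), and adjusted p ran from 0.0360 to 0.804 over its 27 alternatives. The high level was also seen in 1 library of 15% P, at 60.4 FPKM, and in no library of 5% P or ChowCR.

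The 2 transcripts of Syngr1 that were listed in all libraries end in different coding exons, so they encode proteins with different C-termini. Both ends are shown because only the first belongs to the transcript that differed. They are read from GRCm38 with GENCODE M21, on the plus strand, in which the transcripts carry later versions than in the table. Capitals mark the coding part of the last exon, at chr15:80115855-80116073 for the first and chr15:80113166-80113255 for the second, and the 15 lower-case bases end the coding exon that they share.
Syngr1 ENSMUST00000009727.11: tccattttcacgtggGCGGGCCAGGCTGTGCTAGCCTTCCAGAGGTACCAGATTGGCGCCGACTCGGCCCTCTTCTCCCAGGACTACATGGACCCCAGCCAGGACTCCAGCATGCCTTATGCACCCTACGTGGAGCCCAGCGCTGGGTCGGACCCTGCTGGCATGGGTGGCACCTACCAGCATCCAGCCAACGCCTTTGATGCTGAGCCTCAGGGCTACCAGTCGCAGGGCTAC
Syngr1 ENSMUST00000009728.12: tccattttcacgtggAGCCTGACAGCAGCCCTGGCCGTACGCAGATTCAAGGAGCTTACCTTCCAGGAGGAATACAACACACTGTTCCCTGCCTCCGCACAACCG
The transcript with the second, shorter end (ENSMUST00000009728.10 in the table) was at 1.85 to 5.25 FPKM (median 3.74) in 10% P and 2.95 to 6.11 FPKM (median 4.06) in Chow. Its log2 difference was -0.20 (limma, adjusted p = 0.932).

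Bsg encodes basigin, the membrane partner that carries lactate transporters to the cell surface. Its transcript ENSMUST00000105381.4 was at 6.30 to 16.5 FPKM (median 7.20) in 10% P and 13.1 to 34.99 FPKM (median 18.9) in Chow, with 5 of 6 libraries of 10% P below every Chow library. The log2 difference was -1.21 ± 0.32 (SE; limma, adjusted p = 0.445). The main transcript ENSMUST00000179781.5 was at 151 to 178 FPKM (median 172) in 10% P and 137 to 217 FPKM (median 178) in Chow, a log2 difference of -0.06 (limma, adjusted p = 0.954). The lower transcript starts at base 79709598 of chromosome 10, downstream of the first exon of the main one. That exon's coding part, which the lower transcript lacks, is shown in capitals from GRCm38 and GENCODE M21, chr10:79704518-79704584 on the plus strand, followed by the first 15 bases of the next exon in lower case.
Bsg ENSMUST00000179781.7: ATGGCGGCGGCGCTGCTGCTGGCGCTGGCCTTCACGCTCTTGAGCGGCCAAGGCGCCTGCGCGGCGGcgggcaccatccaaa
It begins with the start codon ATG.

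**Figure D1:**
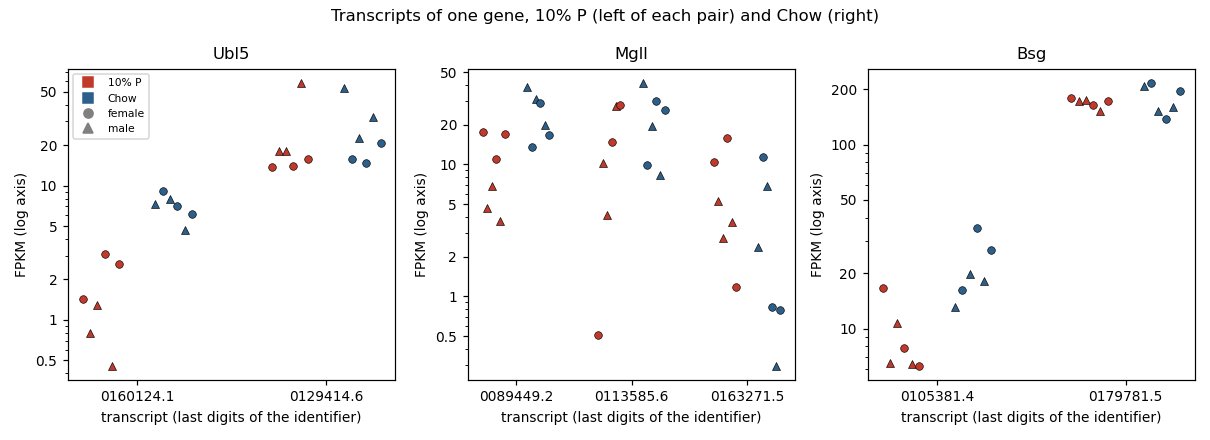
FPKM on a log axis of the transcripts of Ubl5, Mgll and Bsg, each point a library of 10% P (red, left of each pair) or Chow (blue, right), with circles for females and triangles for males. For Ubl5 and Bsg the less abundant transcript was lower in 10% P while the more abundant one overlapped between the diets.

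Mgll, monoacylglycerol lipase, breaks down the endocannabinoid 2-arachidonoylglycerol. Its transcript ENSMUST00000089449.2 was at 3.75 to 17.6 FPKM (median 8.97) in 10% P and 13.6 to 38.3 FPKM (median 24.6) in Chow, a log2 difference of -1.37 ± 0.39 (SE; limma, adjusted p = 0.461). The difference was -0.32 in females and -2.42 in males, and a test of the difference between the sexes on the summed gene gave 0.94 (limma, adjusted p = 0.818). Another transcript of the gene, ENSMUST00000163271.5, was higher in 10% P, at 1.17 to 15.9 FPKM (median 4.48) against 0.299 to 11.4 FPKM (median 1.60) in Chow, a log2 difference of 1.01 (limma, adjusted p = 0.823). The summed gene was at 31.8 ± 12.5 FPKM in 10% P and 52.1 ± 19.9 FPKM in Chow (SD, n = 6 each).

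Other lower transcripts had small differences and little spread. Pcmt1, the methyltransferase that repairs isoaspartyl damage in ageing proteins, had its transcript ENSMUST00000159917.5 at 6.55 to 8.72 FPKM (median 7.38) in 10% P and 9.55 to 17.5 FPKM (median 11.1) in Chow. The groups did not overlap, and the log2 difference was -0.59 ± 0.13 (SE; limma, adjusted p = 0.303). A second Pcmt1 transcript, ENSMUST00000163085.5, was higher in 10% P, with a log2 difference of 1.164 (limma, adjusted p = 0.822). Fez1, an adaptor between kinesin and its cargo in axons, was at 76.3, 76.0, 76.9, 73.5, 81.7 and 81.3 FPKM in 10% P, against 80.0, 106, 106, 110, 106 and 111 FPKM in Chow. Of the 6 Chow libraries, only replicate 1 lay in the range of 10% P. The log2 difference of this transcript was -0.40 ± 0.09 (SE; limma, adjusted p = 0.303). Summed over the gene the groups only just did not overlap, with 10% P up to 84.20 FPKM and Chow replicate 1 at 84.29 FPKM.

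Gucy1b3, a subunit of the nitric oxide receptor guanylate cyclase, was at 31.7 to 36.9 FPKM (median 33.4) in 10% P and 34.98 to 49.7 FPKM (median 41.1) in Chow, a log2 difference of -0.28 (limma, adjusted p = 0.445). Pik3c3, the lipid kinase that starts autophagosome formation, was at 5.85 to 10.3 FPKM (median 7.91) in 10% P and 10.3 to 12.7 FPKM (median 10.6) in Chow. Its log2 difference was -0.40 (limma, adjusted p = 0.445), and 5 of 6 libraries of 10% P lay below every Chow library. Gpm6b, a membrane protein of neurons and glia, had 9 listed transcripts, and ENSMUST00000112228.5 was at 9.64 to 12.02 FPKM (median 10.3) in 10% P and 12.6 to 24.6 FPKM (median 19.6) in Chow. The groups did not overlap, and its log2 difference was -0.78 (limma, adjusted p = 0.539). Ccng1, a cyclin induced by p53, had a difference of -0.40 on the log2 scale (limma, adjusted p = 0.587).

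Among the transcripts that were higher in 10% P, those with the least spread were Map1s, Cited2 and Agap2. Map1s, which binds microtubules and links them to autophagosomes, was at 13.4, 12.1, 11.7, 13.5, 11.1 and 12.03 FPKM in 10% P, against 11.2, 7.94, 10.4, 8.32, 9.26 and 8.42 FPKM in Chow. All but 1 of the 10% P libraries lay above every Chow library. The log2 difference was 0.40 ± 0.11 (SE; limma, adjusted p = 0.445), with 0.63 in females and 0.18 in males. On the summed gene, a test of the difference between the sexes gave 0.45 (limma, adjusted p = 0.779). Cited2, a co-regulator that binds the acetyltransferases CBP and p300, was at 7.07 to 9.16 FPKM (median 7.86) in 10% P and 3.92 to 7.57 FPKM (median 5.70) in Chow, a log2 difference of 0.45 (limma, adjusted p = 0.461). Agap2, an Arf GTPase-activating protein abundant in brain, was at 144 to 182 FPKM (median 153) in 10% P and 115 to 157 FPKM (median 131) in Chow, a log2 difference of 0.25 (limma, adjusted p = 0.587).

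**Figure D2:**
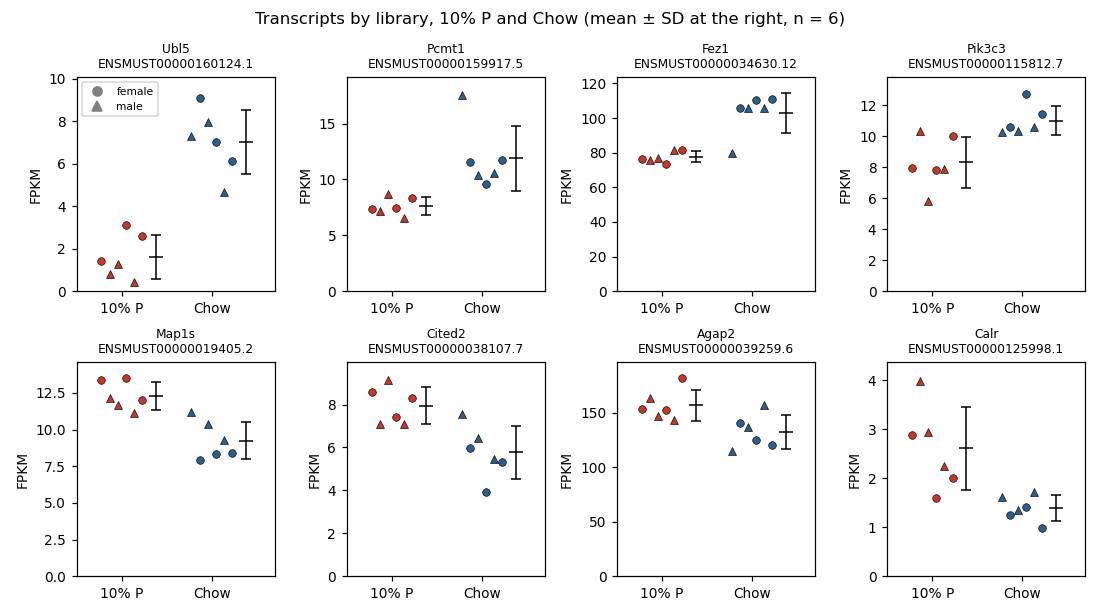
FPKM of 8 transcripts in each of the 6 libraries of 10% P (left) and the 6 of Chow (right), with circles for females, triangles for males and the mean ± SD beside each group. The top row was lower in 10% P (Ubl5, Pcmt1, Fez1, Pik3c3) and the bottom row higher (Map1s, Cited2, Agap2, Calr), and of the 8 only Ubl5 and Pcmt1 had groups that did not overlap.

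Calr, the calcium-binding chaperone of the endoplasmic reticulum (ER), had 4 listed transcripts. The one named here, ENSMUST00000125998.1, is annotated as a retained intron and encodes no protein, and it was at 1.60 to 3.98 FPKM (median 2.57) in 10% P and 0.981 to 1.73 FPKM (median 1.38) in Chow. Its log2 difference was 0.69 (limma, adjusted p = 0.445). The protein-coding transcript ENSMUST00000003912.6 was at 83.1 to 109 FPKM (median 92.0) in 10% P and 71.8 to 105 FPKM (median 84.8) in Chow, a log2 difference of 0.14 (limma, adjusted p = 0.887).

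The remaining higher transcripts varied more among the Chow libraries, and of them only Gnaq and Rps4x-ps had a gap of more than 1 on the log2 scale among the 30 libraries. Gnaq, the Gq alpha subunit that couples glutamate and acetylcholine receptors to phospholipase C, was at 30.2 to 34.3 FPKM (median 32.1) in 10% P and 4.52 to 34.3 FPKM (median 6.41) in Chow. In Chow 5 libraries were between 4.52 and 6.99 FPKM and 1, replicate 5, was at 34.3 FPKM. The upper level, at or above 25.2 FPKM, held 3 libraries of 5% P, 6 of 10% P, 2 of 15% P, 3 of ChowCR and 1 of Chow. On the log2 scale 10% P exceeded Chow by 1.92 ± 0.58 (SE; limma, adjusted p = 0.587). Chmp4b, a filament-forming subunit of the membrane-cutting complex ESCRT-III, was at 69.3 to 112 FPKM (median 74.6) in 10% P and 39.9 to 76.1 FPKM (median 42.7) in Chow, where 4 libraries lay between 39.9 and 44.1 FPKM. Its log2 difference was 0.65 ± 0.18 (SE; limma, adjusted p = 0.445).

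Slc32a1, the transporter that loads GABA and glycine into synaptic vesicles, was at 15.1 to 26.8 FPKM (median 19.02) in 10% P and 2.83 to 18.3 FPKM (median 9.91) in Chow. Its log2 difference was 1.28 ± 0.37 (SE; limma, adjusted p = 0.461). The GABA-synthesising enzyme Gad1, of the same interneurons, differed by 0.06 on the log2 scale (limma, adjusted p = 1.0). Tmem183a was at 8.36 to 11.1 FPKM (median 9.69) in 10% P and 0.727 to 11.98 FPKM (median 2.69) in Chow, a log2 difference of 1.71 (limma, adjusted p = 0.445). Pcsk1n, the precursor of proSAAS peptides of neuroendocrine granules, was at 162 to 268 FPKM (median 240.1) in 10% P and 41.3 to 240.2 FPKM (median 109.9) in Chow, a log2 difference of 0.999 (limma, adjusted p = 0.632). Rps4x-ps, a processed pseudogene whose reads may come from the ribosomal protein gene it copies, was at 2.66 to 42.7 FPKM in 10% P and 0.199 to 10.5 FPKM in Chow, a log2 difference of 3.64 (limma, adjusted p = 0.587).

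**Figure D3:**
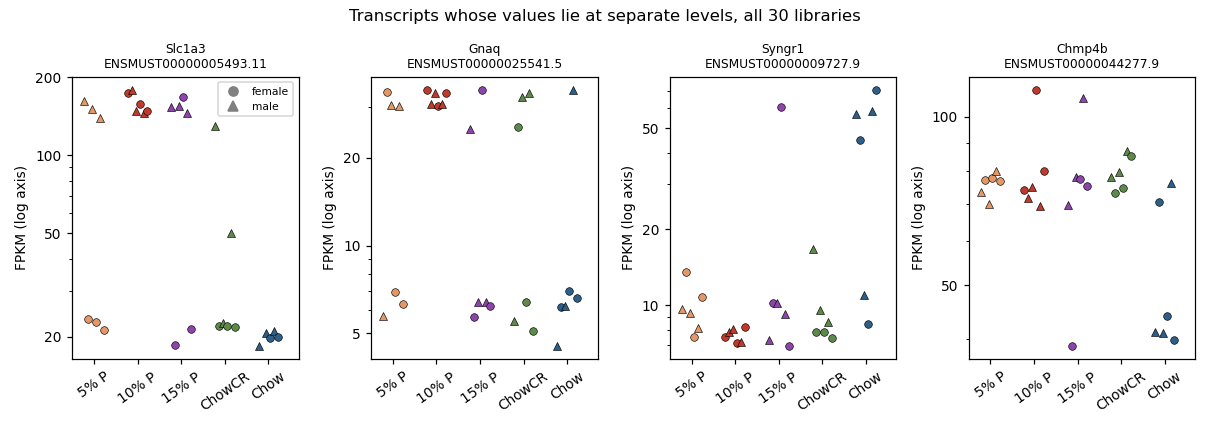
FPKM on a log axis of transcripts of Slc1a3, Gnaq, Syngr1 and Chmp4b in all 30 libraries, by diet from 5% P to 15% P, then ChowCR and Chow, with circles for females and triangles for males. For Slc1a3, Gnaq and Syngr1 the libraries lie at separate levels, with a smaller gap for Chmp4b, the 10% P libraries were all at 1 level for Slc1a3, Gnaq and Syngr1, and the library of Chow replicate 2, which did not list the Slc1a3 transcript, has no point there.

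Summed over genes, Slc1a3 had the smallest p. It encodes the glutamate transporter GLAST, which clears glutamate into astrocytes. The sum was at 177, 181, 149, 162, 148 and 152 FPKM in 10% P, against 19.996, 46.5, 22.2, 21.5, 23.8 and 21.8 FPKM in Chow. The groups lay far apart, with no 10% P library under 148 FPKM and no Chow library over 46.5 FPKM. The log2 difference was 2.68 ± 0.50 (SE; limma, adjusted p = 0.0612). It passed in males alone (limma, adjusted p = 0.0369), with the 12 libraries fitted alone (limma, adjusted p = 0.00011), among genes of at least 5 FPKM (limma, adjusted p = 0.0458) and without Chow replicate 2 (limma, adjusted p = 0.0148). Over its 24 alternatives adjusted p ran from 0.00011 to 0.312 and the log2 difference from 2.503 to 2.97.

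None of the FPKM of Slc1a3 was in transcripts listed in all 30 libraries, so the gene could be tested as a sum alone. Its coding transcript ENSMUST00000005493.11, on the minus strand of chromosome 15, was at 146 to 179 FPKM in 6 of 6 libraries of 10% P and at 18.4 to 20.9 FPKM in 5 of 6 libraries of Chow. Chow replicate 2 did not list it and instead had the retained-intron transcript ENSMUST00000128879.1 at 45.4 FPKM, a transcript that was at 0.000942 to 1.65 FPKM in 10% P and at 0.582 to 1.30 FPKM in the other Chow libraries. Other diets held both levels of the coding transcript: 3 libraries of 5% P were between 139 and 163 FPKM and 3 between 21.1 and 23.3 FPKM. In 15% P 4 were between 145 and 167 FPKM, and 2 were at 18.5 and 21.4 FPKM. In ChowCR 1 was at 130.2 FPKM, 1 at 50.1 FPKM and 4 between 21.8 and 22.6 FPKM. None of the other 11 astrocyte genes tested passed. Their log2 differences ran from -0.93 for the glutamine synthetase Glul to 1.76 for the gap junction protein Gja1, with 0.17 for the companion transporter Slc1a2. Glul was at 5.84 to 582 FPKM in 10% P and 441 to 534 FPKM in Chow, with the higher median in 10% P (522 against 489 FPKM). Gja1 overlapped widely, at 2.24 to 61.9 FPKM (median 53.8) in 10% P and 1.19 to 58.3 FPKM (median 19.3) in Chow.

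Cpne2, Wbscr22, Poldip3, Arap2 and Spock1 also rested mostly on transcripts that were not listed everywhere. Cpne2, a copine that binds membranes in response to calcium, was at 12.5 to 16.0 FPKM (median 15.4) in 10% P and 0.308 to 7.70 FPKM (median 0.676) in Chow. Its groups did not overlap, with a difference of 2.98 on the log2 scale (limma, adjusted p = 0.176), and its coding transcript was listed in 6 libraries of 10% P and 2 of Chow. Wbscr22, a methyltransferase of 18S ribosomal RNA, was at 1.91 to 11.8 FPKM (median 6.78) in 10% P and 0.439 to 2.42 FPKM (median 1.65) in Chow, a log2 difference of 1.67 (limma, adjusted p = 0.176). Its coding transcript was listed in 4 libraries of 10% P and 0 of Chow, and the log2 difference was 0.12 with the transcripts listed everywhere, against 1.95 without 10% P replicate 6, where it passed (limma, adjusted p = 0.0388). Over its 25 alternatives adjusted p ran from 0.0388 to 0.997.

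Poldip3, a protein of mRNA export and translation, was at 1.24 to 1.97 FPKM in 10% P and 0.130 to 0.923 FPKM in Chow, with no overlap and a log2 difference of 0.94 (limma, adjusted p = 0.292). Arap2, a GTPase-activating protein for Arf, was at 1.38 to 10.4 FPKM in 10% P and 0.228 to 1.36 FPKM in Chow, with no overlap and a log2 difference of 1.73 (limma, adjusted p = 0.292). The Arap2 transcript with the highest values is a retained intron. Spock1, a proteoglycan of the brain's extracellular matrix, was at 22.5 to 33.3 FPKM in 10% P and 2.04 to 30.9 FPKM in Chow, a log2 difference of 1.65 (limma, adjusted p = 0.292). The summed values of Map1s, Chmp4b, Slc32a1 and Tmem183a, the other higher genes, repeat those of the transcripts above.

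Among lower genes by sum, Uros, the haem pathway enzyme uroporphyrinogen III synthase, was at 0.656 to 4.89 FPKM (median 2.14) in 10% P and 5.03 to 6.77 FPKM (median 5.92) in Chow. Its groups did not overlap and the log2 difference was -1.33 (limma, adjusted p = 0.352), and none of its FPKM was in transcripts listed everywhere. Krit1, a protein of endothelial junctions whose loss causes cavernous malformations, was at 0.271 to 4.16 FPKM (median 0.821) in 10% P and 2.98 to 8.70 FPKM (median 5.42) in Chow, a log2 difference of -1.92 (limma, adjusted p = 0.520). Only 7.47% of the FPKM of Krit1, and 52.7% of that of Tceb1, was in transcripts listed everywhere. Tceb1, elongin C, had a difference of -1.22 on the log2 scale (limma, adjusted p = 0.528) and Mrpl50, of the mitochondrial ribosome, -1.09 (limma, adjusted p = 0.561). Arl6ip5, an ER membrane protein that binds a neuronal glutamate transporter, had all of its FPKM in transcripts listed everywhere. It was at 65.4 to 75.2 FPKM (median 69.4) in 10% P and 75.2 to 85.4 FPKM (median 77.6) in Chow, a log2 difference of -0.17 ± 0.05 (SE; limma, adjusted p = 0.528).

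Lists of genes were read against all 4848 genes tested, of which 51.7% were higher and 47.9% lower in 10% P, with a median log2 difference of 0.01. None of the lists' members had an adjusted p under 0.05. Genes that answer a shortage of amino acids went both ways: of 25, 8 could be tested, 5 were higher and 3 lower, with a median log2 difference of 0.11. Atf4 itself was at 20.5 to 83.4 FPKM (median 74.7) in 10% P and 65.7 to 82.5 FPKM (median 75.5) in Chow, and the asparagine synthetase Asns at 25.8 to 40.3 FPKM (median 34.5) in 10% P and 30.2 to 40.7 FPKM (median 36.9) in Chow. The alanine aminotransferase Gpt2 was at 1.38 to 23.1 FPKM (median 18.3) in 10% P and 0.547 to 16.4 FPKM (median 6.90) in Chow, a log2 difference of 1.58 (limma, adjusted p = 0.792). Only 5.32% of the FPKM of Gpt2 was in transcripts listed everywhere, and its difference was 2.97 in females and 0.19 in males. A test of the difference between the sexes gave 2.78 (limma, adjusted p = 0.797). Trib3, Fgf21 and Phgdh were not listed in any of the 12 libraries.

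Amino acid transporters had 6 higher and 2 lower members of 8 tested, with a median of 0.18. Slc3a2, the heavy chain shared by several transporters of large neutral amino acids, was at 31.7 to 51.6 FPKM (median 38.7) in 10% P and 30.0 to 34.1 FPKM (median 32.6) in Chow, a log2 difference of 0.27 (limma, adjusted p = 0.695). Aminoacyl-tRNA synthetases, many of them Atf4 targets, had 3 higher and 8 lower members of 11 with a median of -0.13, and Nars had -0.24 (limma, adjusted p = 0.792). Genes of the mTOR pathway and translation control had 4 higher and 7 lower members of 11 and a median of -0.07, with the GTPase Rragd at -0.47 (limma, adjusted p = 0.863). Of the cytosolic ribosomal proteins 6 of 58 could be tested, 5 higher and 1 lower, with a median of 0.07, which was -0.24 in females and 0.34 in males. Insulin and IGF signalling had 3 higher and 6 lower members of 9 and a median of -0.05, which was 0.08 without Chow replicate 1.

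The list of energy sensors had the highest median of the 33 with all 12 libraries of both diets. Of 8 tested sirtuins, AMPK subunits and partners, 5 were higher and 3 lower, with a median of 0.30. Stk11, the kinase that activates AMPK, was at 13.5 to 19.2 FPKM (median 16.5) in 10% P and 9.54 to 17.4 FPKM (median 13.4) in Chow, a log2 difference of 0.31 (limma, adjusted p = 0.672). The deacetylase Sirt7 was at 3.46, 9.12, 9.47, 1.64, 9.89 and 2.98 FPKM in 10% P, against 0.259, 4.59, 2.12, 0.147, 7.16 and a listed 0 FPKM in Chow, and only 4.66% of its FPKM was in transcripts listed everywhere. Oxidative phosphorylation, the largest list, split into 23 higher and 27 lower of 50, with a median of -0.01. Its member Cox7b was at 174, 156, 3.40, 174, 172 and 75.4 FPKM in 10% P, against 158 to 190.4 FPKM in Chow, with 2 libraries of 10% P far below the others and a log2 difference of -1.17 (limma, adjusted p = 0.789). Glycolysis had 7 higher and 4 lower of 11 with a median of 0.09, and Aldoa, aldolase A, was at 686 to 855 FPKM (median 757) in 10% P and 543 to 773 FPKM (median 668) in Chow, a log2 difference of 0.19 (limma, adjusted p = 0.672).

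Of 12 tested ER chaperones and unfolded protein response genes, 10 were higher and 2 lower in 10% P, with a median of 0.17. Of these 12, 8 had at least 90% of their pooled FPKM in transcripts listed everywhere. Among those, 8 were higher and 0 lower, again with a median of 0.17. Xbp1, which drives the transcription that follows ER stress, was at 18.8 to 27.0 FPKM (median 23.0) in 10% P and 13.6 to 21.1 FPKM (median 18.5) in Chow, a log2 difference of 0.32 ± 0.11 (SE; limma, adjusted p = 0.672). Dnajb11, an ER co-chaperone, was at 13.1 to 23.4 FPKM (median 19.3) in 10% P and 9.97 to 19.5 FPKM (median 13.9) in Chow, a log2 difference of 0.38 (limma, adjusted p = 0.672). The main ER chaperone Hspa5 had 0.29 (limma, adjusted p = 0.874). The 2 lower members, Sel1l at -1.10 and Herpud1 at -0.60, both serve degradation of ER proteins and were incompletely listed. Cytosolic heat shock genes had 7 higher and 4 lower of 11 and a median of 0.08.

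Autophagy and lysosome genes had 3 higher and 17 lower of 20, with a median of -0.17. Of these, 11 had at least 90% of their pooled FPKM in transcripts listed everywhere. Among those 11, 2 were higher and 9 lower, with a median of -0.08. Besides Pik3c3, Lamp2, a membrane protein of lysosomes, was at 10.7 to 15.8 FPKM (median 15.1) in 10% P and 14.8 to 25.01 FPKM (median 19.02) in Chow, a log2 difference of -0.44 (limma, adjusted p = 0.672). Gabarap, a ubiquitin-like protein of the autophagosome, had -1.70, with 3.17 to 103 FPKM in 10% P and 61.1 to 106 FPKM in Chow (limma, adjusted p = 0.773). The lysosomal proteases Ctsd and Ctsb had -0.08 and -0.05. ESCRT genes had 2 higher and 6 lower of 8 and a median of -0.16, with Chmp4b the highest at 0.65, and Chmp5 had -0.49 (limma, adjusted p = 0.789). The proteasome had 9 higher and 7 lower of 16 and a median of 0.01.

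**Figure D4:**
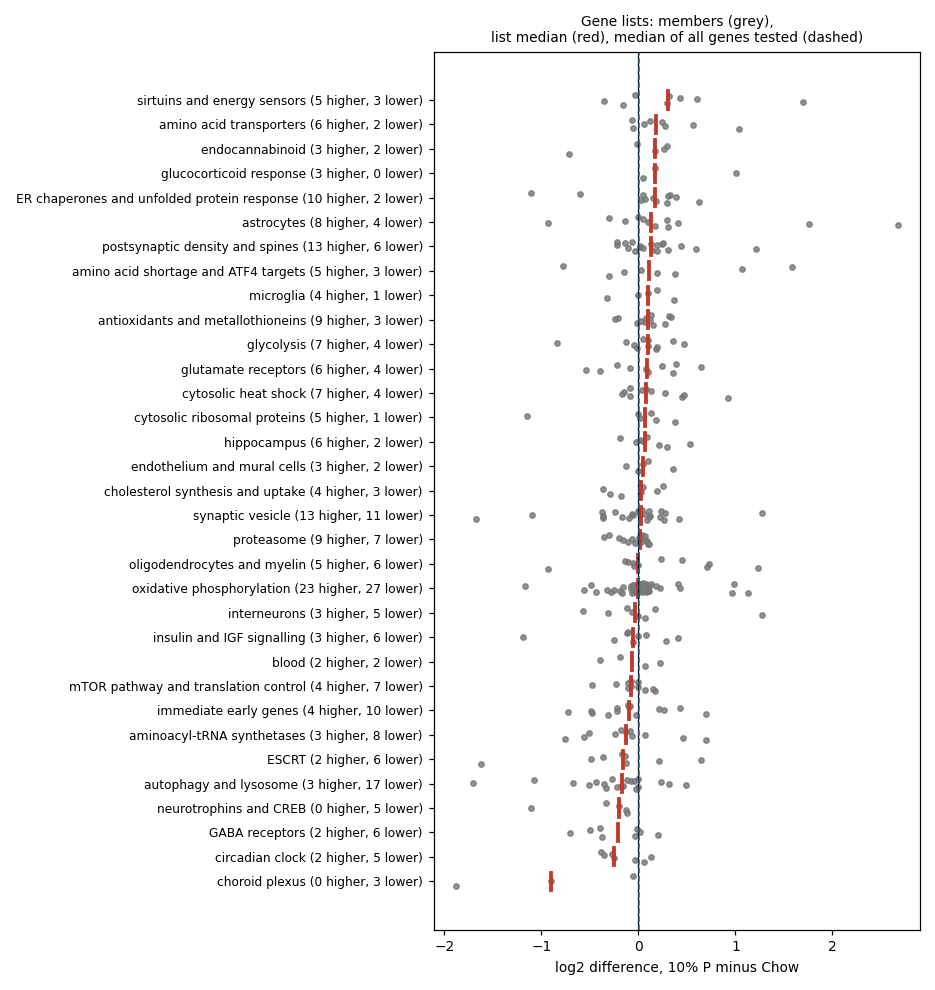
Log2 differences of gene sums, 10% P minus Chow, for the 33 lists with at least 3 tested genes, ordered by list median, with members as grey points, list medians as red bars and the median of all genes tested as a dashed line. Most medians lay within 0.2 of 0, and the extremes were choroid plexus (-0.91, 3 genes) and sirtuins and energy sensors (0.30, 8 genes).

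At the synapse the vesicle list was balanced, with 13 higher and 11 lower of 24 and a median of 0.02, so Syngr1 and Slc32a1 stood at its ends. The vesicle protein Syt4 had a log2 difference of -1.10, with 3.27 to 37.4 FPKM in 10% P and 33.4 to 45.0 FPKM in Chow (limma, adjusted p = 0.774). Postsynaptic density genes had 13 higher and 6 lower of 19 and a median of 0.13, and Ppp3r1, the regulatory subunit of calcineurin, was at 247 to 305 FPKM (median 276) in 10% P and 277 to 389 FPKM (median 324) in Chow, a log2 difference of -0.22 (limma, adjusted p = 0.672). Glutamate receptors had 6 higher and 4 lower of 10 and a median of 0.09. Grm5, the Gq-coupled receptor mGluR5, was at 16.7 to 21.5 FPKM (median 19.4) in 10% P and 8.36 to 19.4 FPKM (median 11.5) in Chow, a log2 difference of 0.65 (limma, adjusted p = 0.747), which became -0.13 with annotated protein-coding transcripts alone.

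GABA receptors had 2 higher and 6 lower of 8 and a median of -0.21. This median was -0.04 over the 7 genes with at least 90% of their pooled FPKM in transcripts listed everywhere. Gabbr2, a subunit of the metabotropic GABA receptor, was at 19.4 to 38.5 FPKM (median 29.0) in 10% P and 25.01 to 48.2 FPKM (median 37.3) in Chow, a log2 difference of -0.40 (limma, adjusted p = 0.789). Neurotrophin and CREB genes had 0 higher and 5 lower of 5 and a median of -0.20, from -0.12 for the BDNF receptor Ntrk2 to -1.11 for the neuropeptide precursor Vgf. Immediate early genes, which follow neuronal firing within minutes, had 4 higher and 10 lower of 14 and a median of -0.10. Nr4a1, a nuclear receptor of that group, was at 17.4 to 32.7 FPKM (median 24.1) in 10% P and 28.8 to 40.3 FPKM (median 33.3) in Chow, a log2 difference of -0.49 ± 0.19 (SE; limma, adjusted p = 0.672). Circadian clock genes had 2 higher and 5 lower of 7 and a median of -0.25, which ran from -0.32 to -0.01 with a library left out and was 0.24 in females, with the output factor Hlf at -0.36 (limma, adjusted p = 0.747) and the repressor Nr1d1 at -0.04.

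Markers of cell types other than hippocampal neurons were measured in bulk tissue, where fewer cells of a type and less RNA per cell cannot be told apart. The summed choroid plexus markers ran from 52.8 to 5114 FPKM (median 143) in 10% P and from 57.4 to 7131 FPKM (median 1757) in Chow, and 13 of 15 were listed, all but F5 and Slc4a5. Ttr, the thyroid hormone carrier of that tissue, was at 13.4 to 4484 FPKM (median 83.8) in 10% P and 18.7 to 6558 FPKM (median 1588) in Chow, a log2 difference of -1.88 ± 1.98 (SE; limma, adjusted p = 0.899). With log2 Ttr as a covariate 0 transcripts and 0 genes passed, and the smallest adjusted p was 0.144 for transcripts and 0.124 for genes (limma). Astrocyte markers summed to 1971 to 2508 FPKM in 10% P and 1832 to 2406 FPKM in Chow. Microglia markers summed to 1035 to 1332 FPKM in 10% P and 973 to 1189 FPKM in Chow. Markers of oligodendrocytes and myelin summed to 455 to 1816 FPKM in 10% P and 1195 to 1784 FPKM in Chow. Among these, in 10% P, Mbp ran from 25.2 to 1171 FPKM (median 955) and Mobp from 48.9 to 273 FPKM. In the same diet Cnp ran from 55.8 to 99.2 FPKM and Mal from 35.1 to 73.1 FPKM. Of the 12 tested astrocyte genes 8 were higher and 4 lower with a median of 0.13, and Apoe, the brain's lipid carrier, was at 586 to 777 FPKM (median 673) in 10% P and 418 to 728 FPKM (median 554) in Chow, a log2 difference of 0.29 (limma, adjusted p = 0.740). Gfap, the astrocyte intermediate filament, had a difference of 0.30 on the log2 scale (limma, adjusted p = 0.838), which was -0.01 without Chow replicate 1.

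Myelin genes had 5 higher and 6 lower of 11 and a median of 0.00, which was -0.33 in females and 0.33 in males. Microglia genes had 4 higher and 1 lower of 5 and a median of 0.10, interneuron genes 3 higher and 5 lower of 8 and a median of -0.03, and endothelial genes 3 higher and 2 lower of 5 and a median of 0.05. Haemoglobins, a measure of residual blood, had 2 higher and 2 lower of 4 and a median of -0.06. None of the 8 ependymal markers could be tested. Of the 3 tested choroid plexus genes, 0 were higher and 3 lower, with a median of -0.91. This median ran from -2.46 to 0.92 over its alternatives. Enpp2, autotaxin, had a log2 difference of -0.91 ± 0.87 (SE; limma, adjusted p = 0.890). In males alone the difference was 0.65 for Enpp2 and 0.92 for Ttr. Hippocampal markers had 6 higher and 2 lower of 8 and a median of 0.07.

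The remaining lists lay near the median of all genes or rested on few of them. Cholesterol synthesis had 4 higher and 3 lower of 7 and a median of 0.03, with the sterol desaturase Sc5d at -0.36 (limma, adjusted p = 0.792). Antioxidants and metallothioneins had 9 higher and 3 lower of 12 and a median of 0.10, with the zinc-binding Mt2 at 0.32 (limma, adjusted p = 0.844). Endocannabinoid genes had 3 higher and 2 lower of 5 and a median of 0.17, with Mgll the lowest at -0.72 and the degrading enzyme Faah the highest at 0.29. Glucocorticoid-induced genes had 3 higher and 0 lower of 3 and a median of 0.17, which was 1.22 without Chow replicate 2, -0.08 at its lowest with another library left out, -0.93 in females and 2.505 in males. Their member Tsc22d3, which mediates anti-inflammatory effects of glucocorticoids, was at 2.07 to 36.1 FPKM (median 26.3) in 10% P and 0.919 to 28.2 FPKM (median 21.03) in Chow.

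Whether the difference between 10% P and Chow itself differed between females and males was tested by the interaction of diet and sex. It passed for 2 of 4848 genes (0.0413%), both predicted genes, and 304 had an unadjusted p under 0.05 (6.27%). Gm4459, a processed pseudogene on chromosome 7 from 139659688 to 139660155 on the minus strand, was listed at 0 in all 6 libraries of 10% P. In Chow it was at 42.4, 40.2 and 53.5 FPKM in the 3 females and listed at 0 in the 3 males, and it was at 0 in all libraries of the other 3 diets. Gm10031, annotated as protein coding in a single exon on chromosome 1 from 156524012 to 156526664, was at 8.11 to 9.57 FPKM in all 10% P libraries, at 9.72, 10.1 and 10.1 FPKM in the 3 Chow females, and at 0 in the 3 Chow males alone among the 30 libraries. The interaction, females minus males, was -6.51 for Gm4459 (limma, adjusted p = 2.47e-12) and -4.31 for Gm10031 (limma, adjusted p = 1.92e-09). Both sizes depend on the 0.5 added before the logarithm, since the lower level is 0. For Gm4459 all libraries but the 3 Chow females were at 0, so its own spread was estimated mostly from constant values. Its p therefore says little about variation between mice, and with the 12 libraries fitted alone its adjusted p was 3.5e-06 (limma).

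**Figure D5:**
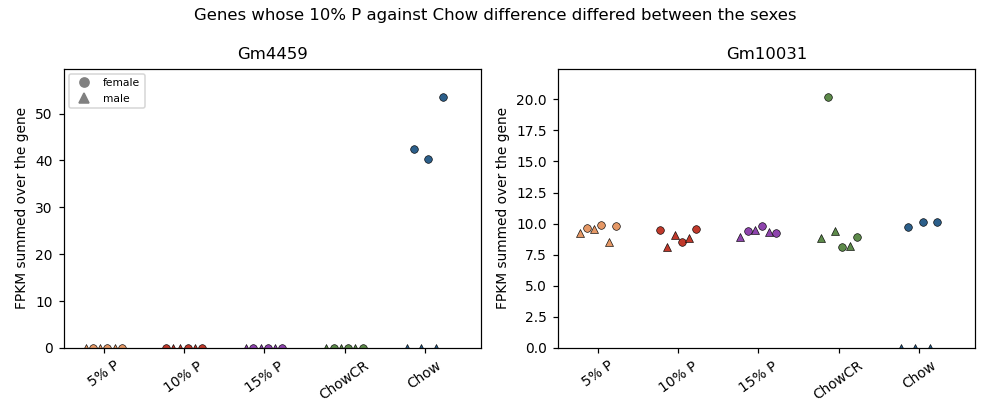
FPKM summed over the gene for Gm4459 and Gm10031 in all 30 libraries by diet, with circles for females and triangles for males. The 3 Chow females alone were above 0 for Gm4459, and the 3 Chow males alone were at 0 for Gm10031.

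Both calls held in all 14 alternatives, but most of these left out 1 library and so kept the all-or-none levels. The total of genes passing was 6 with the 12 libraries fitted alone and 4 without Chow replicate 4 or Chow replicate 6. The next genes by p did not pass. Map4k4, a kinase of stress signalling, had an interaction of -3.84 (limma, adjusted p = 0.104, and 0.00226 without 10% P replicate 1). The unnamed gene 1110032F04Rik had 1.404 (limma, adjusted p = 0.334, and 0.0400 without Chow replicate 5). Shisa4 had 3.01 (limma, adjusted p = 0.387, and 6.22e-06 without Chow replicate 6). Over their 14 alternatives each, adjusted p ran from 0.00226 to 0.358 for Map4k4, from 0.0400 to 0.519 for 1110032F04Rik and from 6.22e-06 to 0.836 for Shisa4.

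The 5% P and 15% P diets are the most like 10% P, and a contrast of 10% P with their mean uses the Chow libraries only for the shared estimate of spread. By limma 0 of 4848 genes passed (0.0%), against 205 at an unadjusted p under 0.05 (4.23%), so nothing here is shown to be particular to 10% P. The smallest adjusted p was 0.519, for Stx4a, a syntaxin of the plasma membrane. It was at 1.03 to 4.20 FPKM (median 2.10) in 10% P, against 3.44 to 5.76 FPKM in 5% P and 2.58 to 5.34 FPKM in 15% P, a log2 difference of -0.93 with a standard error of 0.20. Without 10% P replicate 6 it was -1.14 and passed (limma, adjusted p = 0.0156), and over its 9 alternatives adjusted p ran from 0.0156 to 0.994. Arap2 had a difference of 1.56 on the log2 scale (limma, adjusted p = 0.639). Sub1, a transcriptional coactivator, was at 13.4 to 18.2 FPKM in 10% P, against 14.6 to 44.9 FPKM in 5% P and 34.1 to 42.3 FPKM in 15% P, a log2 difference of -1.01 (limma, adjusted p = 0.992). Vapa, a tether between the ER and other membranes, had -0.18 and the splicing factor Sf3a3 -1.38 (limma, adjusted p = 0.992 each).

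Set side by side, each P diet was compared with the same 6 Chow libraries, so their differences are not independent. The Ubl5 transcript ENSMUST00000160124.1 was -1.64 in 5% P, -1.95 in 10% P and -0.93 in 15% P on the log2 scale. The Syngr1 transcript was -1.67, -1.99 and -1.36 in that order of diets, and Map1s 0.32, 0.40 and 0.26. Pcmt1 was -0.07, -0.59 and -0.37, and Fez1 -0.18, -0.40 and -0.08. The Slc1a3 sum was 1.29 in 5% P, 2.68 in 10% P and 1.70 in 15% P. Against the same Chow libraries, ChowCR gave -0.53 for the Ubl5 transcript, -1.72 for the Syngr1 transcript and 0.65 for Map1s. It gave -0.25 for Pcmt1, -0.12 for Fez1 and 0.55 for the Slc1a3 sum. For Slc1a3 the difference between 10% P and the mean of the other P diets was 1.18 with a standard error of 0.43, and for Fez1 it was -0.27 ± 0.08 (SE; limma, adjusted p = 0.992 each).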

How the data were processed

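Per the labels, RNA from whole hippocampus was sequenced in 30 libraries. The values used are a table of FPKM per transcript that the authors deposited. Read counts were not analysed here. The submitters' processing notes name the build mm10, TopHat2 2.0.14 and bcl2fastq 2.18.0, with featureCounts 1.4.6, StringTie 1.2.4 and DESeq2 1.16.1, without saying which step made the table. Columns were matched to libraries by the number that ends each sample title.

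FPKM were summed per gene symbol, with transcripts not listed in a library taken as 0 in the sum, so a sum depends on what was listed. For 104 symbols that had become date numbers, the GENCODE M21 symbol was used. Features listed in all 30 libraries with a mean of at least 1 FPKM were tested on log2(FPKM + 0.5), which understates changes of low features. The test was limma 3.58.1 in R 4.3.3, with diet and sex as terms, a trended prior, all 30 libraries sharing 1 estimate of spread, and Benjamini-Hochberg adjustment over all features, with a threshold of 0.05. The interaction of diet and sex and the contrast of 10% P with the mean of 5% P and 15% P came from like fits. Tables were made with Python 3.11.15, pandas 2.3.3 and numpy 2.4.6. The procedure was tested on simulated data.

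The members and lists were chosen with earlier results of these data known. Named are the 10 higher and 10 lower transcripts and genes of smallest p without predicted genes, 1 or 2 genes for each list with at least 3 tested genes (33 of 36 lists), and the 5 genes of smallest p for each of the other contrasts, besides a few fixed genes. Some genes that this rule names are not reported here. Other genes that are printed were picked from the lists by role. Alternatives changed the added constant, the minimum, the scaling, the covariates, the libraries and the transcripts summed. Alternatives on sums over transcripts listed in all 30 libraries were chosen after seeing the data. So were those on genes with at least 90% of their FPKM, pooled over the libraries, in such transcripts. That pooled share does not show how well a gene was measured in a single library. The depth is unknown, so no counting error can be given.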

Additional observations from a re-analysis of the deposited data

Results flagged for a closer look

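In 170 groups of 6 libraries that were checked, 24 had 1 library standing apart from the other 5. The rule was a gap of more than 0.625 of the range of the group. Gap and range were taken on the log2 scale used for the tests, not on the FPKM printed below. For independent groups of normal values chance gives about 1 such library in 20 groups. That rate does not hold here, since the features were named by p or by list and some transcripts were checked beside their own gene sum.

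In 10% P the library standing apart was the highest for Chmp4b (replicate 4, 112 FPKM for the transcript and 112 FPKM for the gene sum), Tceb1 (replicate 2, 35.8 FPKM), Enpp2 (replicate 5, 467 FPKM) and the Ubl5 gene sum (replicate 5, 63.1 FPKM). It was the lowest for the Pcsk1n transcript (replicate 5, 162 FPKM), Mrpl50 (replicate 3, 0.350 FPKM), Gpt2 (replicate 5, 1.38 FPKM), Rragd (replicate 1, 3.06 FPKM), Cox7b (replicate 3, 3.40 FPKM), Tsc22d3 (replicate 1, 2.07 FPKM) and Hspa1a (replicate 4, listed at 0 FPKM).

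In Chow the library standing apart was the highest for Gnaq (replicate 5, 34.3 FPKM), the Pcmt1 transcript (replicate 1, 17.5 FPKM), the Slc1a3 sum (replicate 2, 46.5 FPKM) and Sc5d (replicate 1, 16.5 FPKM). It was the lowest for Fez1 (replicate 1, 79.99 FPKM for the transcript and 84.3 FPKM for the gene sum), Poldip3 (replicate 4, 0.130 FPKM), Rps3 (replicate 3, 83.8 FPKM), Atp5j (replicate 2, 5.78 FPKM), Chmp5 (replicate 3, 28.5 FPKM), Gfap (replicate 1, 28.2 FPKM) and Stx4a (replicate 6, 3.16 FPKM).

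The difference between 10% P and Chow differed between the sexes, by a test of the interaction, for Gm4459 (-6.51, females minus males; limma, adjusted p = 2.47e-12) and Gm10031 (-4.31; limma, adjusted p = 1.92e-09). The levels behind both are the 3 Chow females and the 3 Chow males, while the 10% P libraries were alike in both sexes. For Gm4459 all libraries but the 3 Chow females were at 0, so its p rests on a spread of mostly constant values.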

How the results depend on the processing

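No paired analysis was possible because the sample titles carry no replicate numbers shared between diets. Of 2164 recomputed values of 86 single results, 2146 kept their direction and their side of the threshold, 11 came to pass it, 0 ceased to pass it and 7 reversed. In the main fits only the interactions of Gm4459 and Gm10031 passed, so only these could cease to pass. For results far from the threshold, keeping their side of it says little. By limma, 0 transcripts passed in most settings, 1 in females alone (Gm4459), 2 in males alone (Gm6341 and Gm10031), and 0 to 1 when a library was left out: 1 without Chow replicate 4 (Syngr1) or 10% P replicate 4 (Ubl5). Genes passing were 0, but 1 with a mean of at least 5 FPKM or the 12 libraries alone (Slc1a3), 1 in females alone (Gm4459), 3 in males alone (Gm10031, Gm6341 and Slc1a3), and 0 to 1 when a library was left out, being 1 without Chow replicate 2 (Slc1a3) or 10% P replicate 6 (Wbscr22). Genes passing for the interaction were 6 with the 12 libraries alone and 2 to 4 with a library left out, and against the other P diets 0 to 1 (Stx4a without 10% P replicate 6). Unadjusted counts ran from 212 of 3018 transcripts (mean of at least 5 FPKM) to 403 of 6858 (no minimum). For genes they ran from 200 of 2835 (protein-coding transcripts summed) to 394 of 6508 (no minimum). The number of features tested differed between these settings, so the counts cannot be compared directly. Values that reversed were Enpp2 (0.65), Slc2a1 (-0.24) and Ttr (0.92) in males alone, Rps3 (-0.11) and Tsc22d3 (-0.93) in females alone, and Grm5 (-0.13) with protein-coding transcripts summed. With a library left out, Gfap ran from -0.014 (without Chow replicate 1) to 0.40. Of 561 recomputed list medians 14 moved by more than their spread, among them those of myelin, ribosomal proteins and glucocorticoid response, whose signs were opposite in females and males. The causes were not tested. Sums over transcripts that are not listed everywhere, and levels with a gap between libraries, limit what these FPKM values can show.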

Other observations

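Some transcripts were listed in every library of one diet and none of the other. Of the transcripts listed in some but not all of the 12 libraries, 29793 in number, 4 were listed in 6 of 6 libraries of 10% P and 0 of 6 of Chow, and 2 the other way round. The most abundant was the coding transcript of Pigs, a subunit of the enzyme that attaches GPI anchors to proteins, at 9.43 to 16.3 FPKM (median 14.7) in 10% P. It was also listed in 2 libraries of 5% P, 4 of 15% P and 2 of ChowCR. The others were a coding transcript of Scfd2 at 0.421 to 1.81 FPKM, a processed transcript of Gpr45 at 0.0261 to 1.97 FPKM and a retained intron of Cnep1r1 at 0.300 to 0.471 FPKM in 10% P. The transcripts listed in Chow alone of these diets were a retained intron of Atg16l1 at 0 to 0.430 FPKM and Mir7663, listed at 0. These transcripts could not be tested, since a transcript that is not listed has no value.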
